A study of Xenopus tropicalis with 12 samples.

Results

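The genes described here encode the extracellular matrix of the frog embryo, its integrin receptors and the secreted proteases that cut it. They were taken by name: a probe belonged to the set when its transcript accession was that of a RefSeq gene whose symbol is that of a collagen (col), laminin (lam and a chain letter), integrin (itga or itgb), ADAMTS or matrix metalloproteinase (adamts or mmp), TIMP (timp), fibulin (fbln), fibrillin (fbn), matrilin (matn), thrombospondin (thbs) or tenascin C (tnc). Of 134 RefSeq genes with such a symbol, 46 had a probe matched by accession. A probe was kept when at least 4 of the 12 arrays had it marked by the scanner software as well above background, and 45 genes remained, each with 1 probe, of 4372 genes with a symbol and 29168 probes tested in all. Just inside that limit lay itga8 and mmp8, each well above background on 5 arrays, and just outside it lay mmp9.2, on 2 arrays. The 45 genes are 12 collagens, 5 laminins, 6 other matrix glycoproteins, 10 genes with an integrin symbol, 6 ADAMTS proteases, 5 matrix metalloproteinases and 1 TIMP. Of their probes, 42 are named as specific to a transcript in the array design, and those of thbs1, mmp8 and itgb3bp are named xhyb, read here as able to cross-hybridise with related transcripts. On 41 of the 45 the signal was well above background on all 12 arrays.

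The extracellular matrix is the scaffold of secreted proteins between cells. Fibrillar collagens form the cables of cartilage, skin and tendon, while type IV collagen and laminin form the sheet-like basement membranes under epithelia and around muscle. Integrins, each made of an alpha and a beta chain, hold cells to these proteins. Matrix metalloproteinases and ADAMTS proteases cut the matrix and TIMPs inhibit them, and in tadpoles this remodelling shapes the gut, the skin and the tail.

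Whole embryos of Xenopus tropicalis, 3 days post fertilization, were measured on 12 single-colour Agilent arrays, 1 RNA sample per array. Controls (C) and embryos exposed to a mixture of naphthenic acids, S1 or S2, gave 4 arrays per group, and the mixtures were separate batches of 1 commercial product of naphthenic acids, carboxylic acids of petroleum. No strain, transgene, dose, vehicle, length of exposure or number of embryos per sample is given in the sources used here, nor whether the samples of a group came from separate clutches, so that p-values measure the spread between these samples only. In RNA of whole embryos, fewer cells of a type and less RNA per cell cannot be told apart. Each of 3 slides held 4 arrays and all 3 groups. Arrays correlated across probes at r = 0.978 to 0.992 within groups and 0.977 to 0.992 between them. The mean log2 signal of an array, before scaling, was 6.80 to 7.62 in controls, 6.0 to 6.76 in S1 and 6.61 to 7.16 in S2, so that every S1 array was dimmer than every control array. The number of arrays limits the precision. The 95% interval of a log2 change reached 0.28 to either side for the median gene of the set. All levels below are log2 signals relative to the 75th percentile of the array, and all changes are differences of such levels. Levels of different genes are not compared, since each probe has its own response.

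Few of the 45 genes were called, and all of those called fell. A gene was called changed when its Benjamini-Hochberg adjusted p, over all 29168 probes tested with limma, was under 0.05. In S1 against control 1 of the 45 genes fell, the fibulin gene fbln7, and none rose; of all tested probes 0.703% fell and 1.4% rose, and 2.1% were called in either direction. In S2 against control 3 of 45 fell, fbln7, the protease gene adamts5 and the integrin chain gene itgb3, and none rose; of all tested probes 2.63% fell and 2.43% rose, and 5.06% were called in either direction. The shares of the set called in either direction, 2.22% and 6.67%, are thus near those of all probes. At an unadjusted p under 0.05, 1 gene was higher and 5 lower in S1, and 2 were higher and 10 lower in S2, which are 13.3% and 26.7% of the set in either direction. Over all probes 17.2% passed that limit in S1 (8.45% higher and 8.72% lower) and 21.4% in S2 (9.59% higher and 11.8% lower). The F-test over the 3 groups called fbln7 alone (adjusted p = 0.0222), with 3.01% of all probes called.

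The signs of the changes, called or not, were mostly negative on the signals scaled as above. In each comparison with control 35 of the 45 genes (77.8%) had a lower mean than the controls, against 52.5% of all tested probes in S1 and 56.4% in S2. After normexp background correction, these were 17 of 45 genes in S1 and 19 of 45 in S2, against 21.5% and 21.7% of all probes. With outlying local backgrounds replaced they were 20 and 28 of 45, against 27.2% and 34.3%. Each is a larger share than that of all probes. With local backgrounds as measured, the 1st percentile of an array's corrected signal ran from 55.56 on S2-4 to 1221 on C-4. With outlying ones replaced it ran from 53.92 to 57.51. In the first form the lower end of the signal thus differed between arrays. Both comparisons with control use the same 4 control arrays. The median change of the set was -0.15 in S1 and -0.15 in S2, and that of all tested probes -0.02 and -0.04. The changes of single genes ran from -0.70 to 0.48 in S1, leaving out itga8, which no S1 array measured well above background, and from -0.74 to 0.44 in S2. Under normexp the median of all probes itself moved to 0.26 in S1 and 0.15 in S2 (0.16 and 0.08 with outlying local backgrounds replaced), and that of the set to 0.11 and 0.02 (0.0091 and -0.09), so that the sign of the set's median flips in S1, and in S2 without that replacement. Relative to the median of all probes it stayed below 0, at -0.15 and -0.13 (-0.15 and -0.18), against -0.14 and -0.10 without that correction. Below the median of all probes lay 33 of 45 genes in S1 and 32 in S2.

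**Figure D1:**
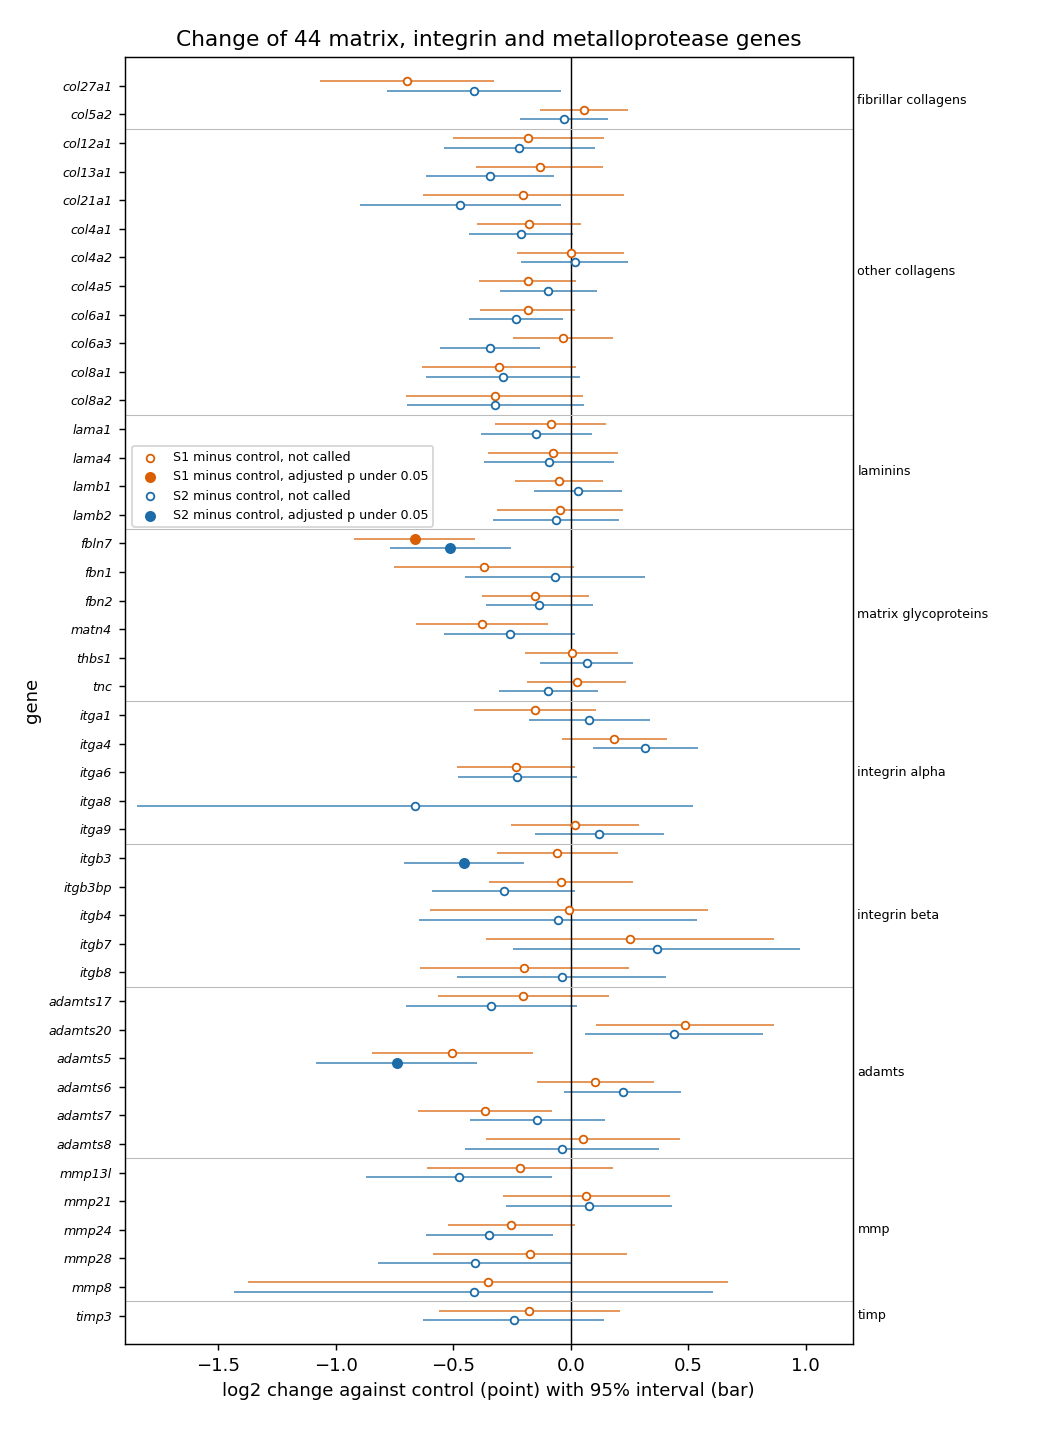
Log2 change against control of 44 of the 45 genes (y axis, ordered by role) in S1 (orange) and S2 (blue), with the 95% interval of the limma fit as a bar; filled points have an adjusted p under 0.05, and no S1 point is drawn for itga8. Most points lie left of 0, and 4 are filled: fbln7 in both mixtures, and itgb3 and adamts5 in S2. Left of 0 lay 35 of all 45 genes in each mixture, against 52.5% of all probes in S1 and 56.4% in S2. After normexp these were 17 of 45 in S1 and 19 of 45 in S2, a larger share than the 21.5% and 21.7% of all probes.

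Each control array is part of the control mean that it is set against, which lowers its own deviation in size. By array, the median deviation of the 45 genes from their control means ran from -0.01 to 0.02 in the controls and from -0.19 to -0.14 in S2. On S1-1, S1-2 and S1-3 it was -0.18, -0.19 and -0.14, but on S1-4 it was 0.0087, within the range of the controls. On S1-4 the median of all tested probes was 0.07 and on S1-1 it was -0.05. Without S1-4 the median change of the set in S1 was -0.17 and that of all tested probes -0.05. Relative to all probes the set then lay at -0.13, against -0.14 with S1-4 kept.

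**Figure D2:**
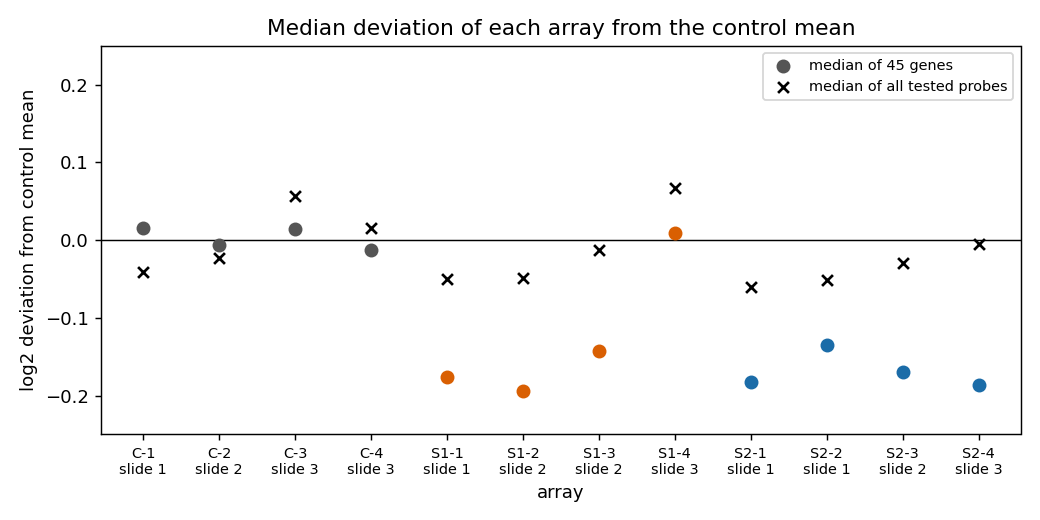
Median over the 45 genes (filled points) and over all 29168 tested probes (crosses) of the log2 deviation from the control mean, for each array along the x axis with its slide, on signals scaled to the 75th percentile. All 4 S2 arrays and 3 of the 4 S1 arrays lie between -0.19 and -0.14 for the set. S1-4 lies at 0.0087 for the set and at 0.07 for all tested probes. Each control array is part of the control mean that it is set against.

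Of the matrix glycoproteins, fbln7 fell in both mixtures and the other 5 were not called. It encodes fibulin 7, a secreted adhesion protein that cells bind, first described in mouse teeth. Its level was -1.01, -1.16, -1.26 and -1.28 on the control arrays C-1 to C-4, -2.06, -1.80, -1.64 and -1.87 on the S1 arrays and -1.77, -1.67, -1.47 and -1.85 on the S2 arrays. Every exposed array lay below every control array, and the arrays of the mixtures overlapped each other. The fall was 0.66 ± 0.12 in S1 (SE, n = 4 arrays per group, adjusted p = 0.015) and 0.51 ± 0.12 in S2 (adjusted p = 0.0311), that is, the signal fell by 36.9% in S1 and fell by 29.9% in S2. Within slides 1, 2 and 3 the difference from control was -1.05, -0.56 and -0.60 in S1 and -0.71, -0.31 and -0.58 in S2. The call in S1 held whichever array was left out (adjusted p from 0.016 to 0.0486). That in S2 was lost without C-1, C-2, C-3, C-4, S2-1, S2-2 or S2-4 (adjusted p from 0.0545 to 0.0957). With the mean log2 signal of the array as a covariate neither call held, at changes of -0.53 in S1 and -0.45 in S2 (adjusted p = 0.294 and 0.0998). As every S1 array was dimmer than every control array, that fit cannot fully tell brightness and exposure apart in S1. Neither call held after normexp. With local backgrounds replaced the changes were -0.42 and -0.40 (adjusted p = 0.0831 and 0.104), and as measured they shrank to -0.09 and -0.20 (adjusted p = 0.909 and 0.996). Over all alternatives the adjusted p ran from 0.00986 to 0.909 in S1 and from 0.0146 to 0.996 in S2. Both upper ends came from normexp with local backgrounds as measured.

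Among the other glycoproteins, matn4, which encodes matrilin 4, an adaptor that links matrix filaments, had levels of 2.29, 2.33, 2.47 and 2.18 on the control arrays, 2.10, 1.75, 1.71 and 2.20 on the S1 arrays and 2.13, 2.21, 1.93 and 1.95 on the S2 arrays. The S1 and S2 arrays reached into the range of the controls, and its change was -0.38 (adjusted p = 0.157) in S1 and -0.26 (adjusted p = 0.268) in S2. The fibrillin genes fbn1 and fbn2 encode the microfibrils that bind latent TGF-beta. fbn1 stood at -0.37 (adjusted p = 0.312) in S1 and -0.07 (adjusted p = 0.855) in S2, and fbn2 at -0.15 and -0.13. Tenascin C (tnc) and thrombospondin 1 (thbs1) are adhesion-modulating proteins of forming tissue. tnc stood at 0.02 in S1 and -0.10 in S2, and thbs1, on a cross-hybridising probe, at 0.00 and 0.07, with intervals of -0.19 to 0.20 and -0.13 to 0.27. The thbs1 probe was among the 3 with the smallest spread within groups (SD 0.09).

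None of the 12 collagen genes passed in either mixture, although 11 of 12 had a lower mean than the controls in S1 and 11 of 12 in S2 (7 and 7 after normexp, 8 and 10 with local backgrounds replaced). Below the median of all probes lay 10 of 12 in each mixture, and 11 of 12 under either form of normexp. At an unadjusted p under 0.05 stood col27a1 in S1, and col27a1, col13a1, col21a1, col6a1 and col6a3 in S2, where 17.2% and 21.4% of all probes stood. Of fibrillar collagens 2 genes were measured. col27a1 encodes a fibrillar collagen of developing cartilage and had levels of 2.21, 2.53, 2.03 and 2.00 on the control arrays, 1.85, 1.73, 1.07 and 1.34 on the S1 arrays and 1.76, 1.86, 1.78 and 1.74 on the S2 arrays. All exposed arrays lay below all control arrays, and the change was -0.70 ± 0.17 in S1 (adjusted p = 0.0584) and -0.41 ± 0.17 in S2 (adjusted p = 0.187). In S1 it passed after quantile normalization and in the authors' value table (both -0.74, adjusted p = 0.033), without S1-1 (adjusted p = 0.0455) and among probes above background on all arrays (adjusted p = 0.0421). It shrank to -0.40 in the fit that holds array brightness (adjusted p = 0.496), which cannot fully tell brightness and exposure apart in S1. Over all its alternatives the adjusted p ran from 0.033 to 0.796. The other, col5a2, a chain of the type V collagen that starts fibrils in skin and tendon, stood at 0.06 (interval -0.13 to 0.24) and -0.03 (interval -0.22 to 0.16), with a spread within groups of only 0.08.

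The 10 other collagen genes had changes from -0.32 up to that of col4a2, at the control level, in S1, with a median of -0.18, and of -0.47 to 0.02 in S2, with a median of -0.26. col6a3, a chain of the beaded filaments of type VI collagen that surround muscle fibres, had levels of 2.06, 1.94, 2.06 and 2.07 on the control arrays, 2.05, 2.22, 1.82 and 1.90 on the S1 arrays and 1.65, 1.75, 1.68 and 1.67 on the S2 arrays. The S2 arrays lay below all control and all S1 arrays, while the S1 arrays spread over the controls. Its change was -0.03 (adjusted p = 0.917) in S1 and -0.34 (adjusted p = 0.0642) in S2. Its partner chain col6a1 stood at -0.18 (adjusted p = 0.339) in S1 and -0.23 (adjusted p = 0.168) in S2. Both col6a1 and col6a3 passed in S2 after quantile normalization. col13a1, a transmembrane collagen, had levels of -1.41, -1.57, -1.60 and -1.47 on the control arrays, -1.54, -2.02, -1.61 and -1.40 on the S1 arrays and -1.84, -1.92, -1.90 and -1.76 on the S2 arrays. The S2 arrays all lay below the controls, and the change there was -0.34 (adjusted p = 0.136), against -0.13 (adjusted p = 0.658) in S1. col21a1, which encodes a collagen that associates with fibrils, had the lowest change of the 10 in S2, -0.47 (adjusted p = 0.191), and -0.20 (adjusted p = 0.669) in S1, and col12a1, of the same kind, stood at -0.18 and -0.22.

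None of the 3 basement membrane collagen genes was called. col4a1 stood at -0.18 in S1 and -0.21 in S2, col4a5 at -0.18 and -0.10, and col4a2, whose chain assembles with that of col4a1, at 0.02 in S2 with an interval of -0.21 to 0.24. In S1 the mean of col4a2 equalled that of the controls to 2 decimals (2.19 ± 0.11 against 2.19 ± 0.11, SD, n = 4). The network collagens of type VIII, col8a1 and col8a2, found in vessels and in Descemet's membrane of the eye, stood at -0.30 and -0.32 in S1 and at -0.29 and -0.32 in S2, none called.

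Laminin genes stayed near the controls. Of the 5 measured none passed, and their changes lay within -0.09 to -0.05 in S1 and -0.15 to 0.03 in S2. lama1 and lamb1 encode chains of the laminin of the earliest basement membranes. lama1 had the lowest change of the 5 in both mixtures, -0.09 (adjusted p = 0.762) in S1 and -0.15 (adjusted p = 0.473) in S2. lamb1 had levels of 3.15, 3.26, 3.09 and 3.15 on the control arrays, 3.08, 3.12, 3.26 and 2.99 on the S1 arrays and 3.21, 3.13, 3.24 and 3.18 on the S2 arrays. The groups overlapped throughout, and its change was -0.05 with an interval of -0.24 to 0.14 in S1 and 0.03 with an interval of -0.16 to 0.22 in S2. lamb2, of muscle and kidney basement membranes, stood at -0.05 and -0.06, and lama4, of vessels and nerves, at -0.08 and -0.09.

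Of the 10 genes with an integrin symbol, itgb3 fell in S2 and the other 9 were not called. The itgb3 protein is the beta chain of the fibrinogen receptor of blood platelets and, with another alpha chain, of a vitronectin receptor of many cells. Its level was -1.30, -1.28, -1.17 and -0.98 on the control arrays, -1.26, -1.33, -1.03 and -1.34 on the S1 arrays and -1.59, -1.51, -1.56 and -1.89 on the S2 arrays. The 4 S2 arrays lay below all other arrays, and the S1 arrays overlapped the controls, S1-2 and S1-4 lying just below the lowest of them. The fall in S2 was 0.45 ± 0.12 (adjusted p = 0.0473, a signal that fell by 27%), and the change in S1 was -0.06 (adjusted p = 0.871). Within slides 1, 2 and 3 the S2 difference was -0.25, -0.27 and -0.81. This call passed the threshold narrowly. It held in 2 of the 12 sets that leave out 1 array, those without S1-3 and without S1-4, and was lost without any other array, among them C-1, C-2, C-3, C-4 and all 4 S2 arrays (adjusted p from 0.0454 to 0.122 over the 12 sets). It was lost too, at a change of similar size, after quantile normalization (-0.43, adjusted p = 0.0696), in a fit with the slide as a block (-0.46, adjusted p = 0.0766) and with array brightness as a covariate (-0.52, adjusted p = 0.0657). After normexp it was -0.33 with local backgrounds replaced (adjusted p = 0.239) and -0.15 as measured (adjusted p = 0.996), and over all alternatives the adjusted p ran from 0.0174 to 0.996.

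itga4, the alpha chain with which blood cells and neural crest cells bind fibronectin, had the highest change of the alpha chains in both mixtures, without passing. Its level was -2.01, -2.10, -1.96 and -2.04 on the control arrays, -2.02, -1.73, -2.01 and -1.62 on the S1 arrays and -1.77, -1.70, -1.70 and -1.69 on the S2 arrays. All S2 arrays lay above all controls, and S1 overlapped them, with S1-2 and S1-4 high. The change was 0.18 (adjusted p = 0.393) in S1 and 0.32 (adjusted p = 0.098) in S2, and it passed in S2 after quantile normalization (0.37, adjusted p = 0.0475) and with array weights (0.32, adjusted p = 0.0269), over all alternatives at an adjusted p from 0.0269 to 0.996. The other measured alpha chains were not called. itga6, which pairs with itgb4 in the hemidesmosomes of the epidermis, stood at -0.23 in S1 and -0.23 in S2, and itgb4 at -0.01 and -0.06. The itgb4 probe was dim, well above background on 3 arrays of each group. Its intervals were wide, -0.60 to 0.58 in S1 and -0.65 to 0.54 in S2. The collagen receptor chain itga1 stood at -0.15 and 0.08, and itga9, which binds tenascin C, at 0.02 and 0.12.

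itga8, a chain known from kidney development in the mouse, was well above background on 3 control arrays, 0 S1 arrays and 2 S2 arrays. Its mean was -5.73 ± 1.05 in controls, -6.58 ± 0.90 in S1 and -6.39 ± 0.61 in S2 (SD, n = 4). Set against the lowest signal well above background on the S1 arrays, neither the controls nor S2 were brighter, so that no fold is given for S1, and its spread within groups (0.88) was the widest of the set. The beta chains itgb7 of white blood cells and itgb8, which activates TGF-beta, stood at 0.25 and -0.20 in S1 and at 0.37 and -0.04 in S2. The gene itgb3bp, in the set through its symbol, encodes not an integrin but a protein that binds the itgb3 chain and centromeres. It had 2 tested probes, both cross-hybridising, which stood at -0.04 and -0.11 in S1 and at -0.29 and -0.23 in S2, none called.

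**Figure D3:**
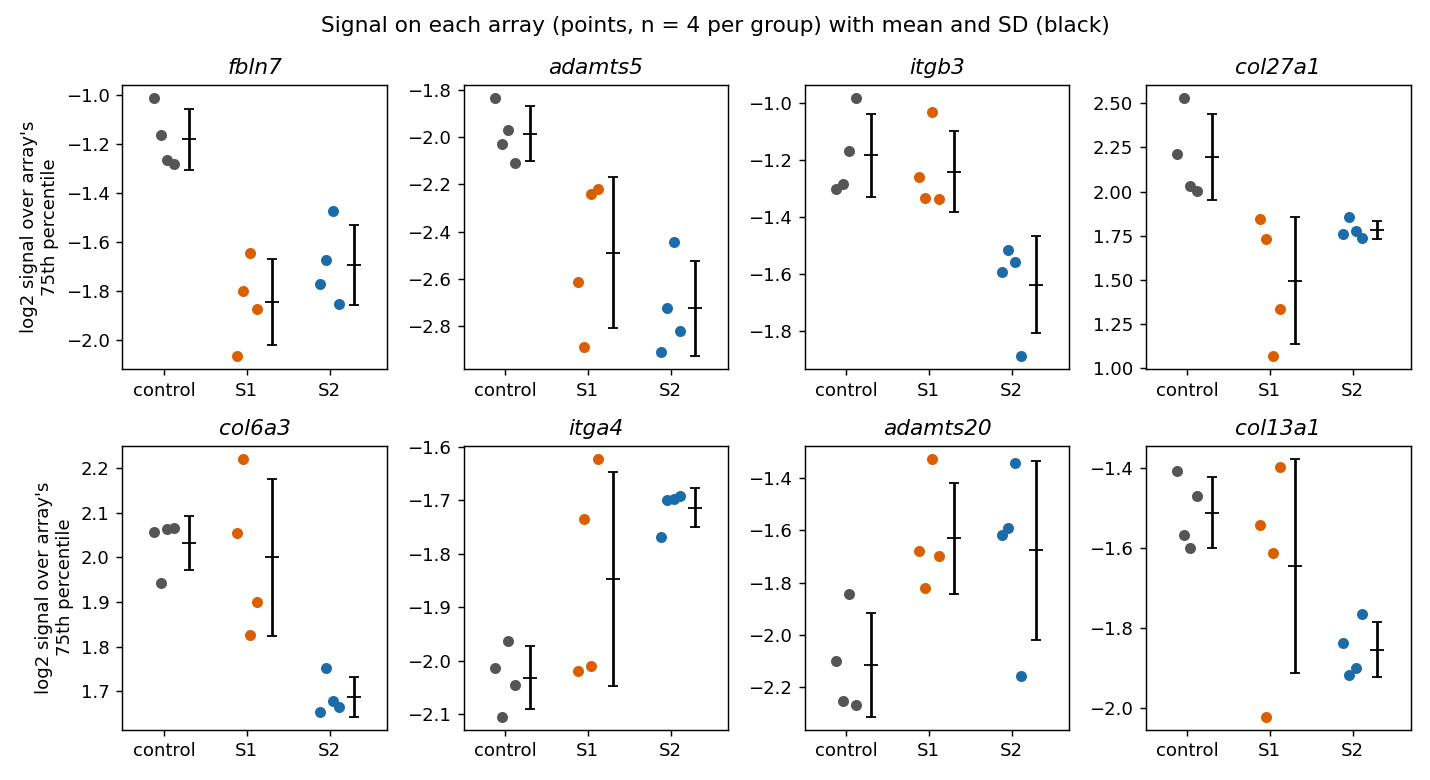
Log2 signal relative to the array's 75th percentile (y axis) of 8 genes on every array (points), by group on the x axis, with the mean and SD of 4 arrays in black. The S1 and S2 points of fbln7, adamts5 and col27a1 all lie below the control points, those of itgb3, col6a3 and col13a1 do so in S2 only, and in itga4 the S2 points lie above them.

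Of the 6 ADAMTS proteases adamts5 fell in S2 and none else was called; the mean of 3 lay below the controls in S1 and of 4 in S2. adamts5 cuts the proteoglycans aggrecan and versican. Its level was -1.83, -2.03, -1.97 and -2.11 on the control arrays, -2.61, -2.89, -2.24 and -2.22 on the S1 arrays and -2.91, -2.72, -2.45 and -2.82 on the S2 arrays. All exposed arrays lay below all control arrays, with S1-3 and S1-4 nearest to them. The fall in S2 was 0.74 ± 0.16 (adjusted p = 0.0223), a signal that fell by 40.1%, and the change in S1 was -0.50 ± 0.16 (adjusted p = 0.125). Within slides 1, 2 and 3 the difference was -0.98, -0.42 and -0.78 in S2 and -0.78, -0.53 and -0.18 in S1. The call in S2 was lost without C-1, C-3, S2-1 or S2-2 (adjusted p from 0.0604 to 0.0759), while the fall itself stayed between 0.68 and 0.83 in the 12 sets that leave out 1 array. With array brightness as a covariate the change was -0.73 (adjusted p = 0.0631). After normexp it was -0.47 with local backgrounds replaced and -0.11 as measured, neither called, and the change in S1 was -0.20 and turned to 0.16. Over all alternatives the adjusted p in S2 ran from 0.0069 to 0.996.

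adamts20, a protease that also cuts versican and is needed by pigment cells of the mouse, had the highest change of the set in both mixtures, without passing. Its level was -2.10, -2.25, -1.84 and -2.27 on the control arrays, -1.68, -1.82, -1.33 and -1.70 on the S1 arrays and -1.62, -1.59, -1.34 and -2.16 on the S2 arrays. In S1 the arrays lay above the controls, although S1-2 stood only just above C-3, and in S2 all but S2-4 did. The change was 0.48 (adjusted p = 0.177) in S1 and 0.44 (adjusted p = 0.169) in S2, and without S2-4 the S2 change was 0.60 and passed (adjusted p = 0.0424; over all alternatives 0.0176 to 0.996). adamts7, a protease of cartilage and vessel walls, had levels of 0.21, 0.42, 0.22 and 0.06 on the control arrays, -0.10, -0.24, -0.13 and -0.09 on the S1 arrays and -0.10, 0.23, 0.39 and -0.18 on the S2 arrays. The S1 arrays lay below all controls, S2 overlapped them, and the change was -0.37 (adjusted p = 0.177) in S1 and -0.14 (adjusted p = 0.573) in S2. adamts6, adamts8 and adamts17 stood at 0.10, 0.05 and -0.20 in S1 and at 0.22, -0.04 and -0.34 in S2.

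None of the 5 matrix metalloproteinase genes passed, with medians of -0.22 in S1 and -0.41 in S2. In S2 the arrays of 3 of them, mmp13l, mmp24 and mmp28, all lay below the controls, as did those of 8.3% of all probes. Under neither form of normexp did any of the 3 do so, and the change of mmp13l turned positive there. mmp24, a membrane-bound metalloproteinase of the nervous system, had levels of -1.38, -1.44, -1.24 and -1.53 on the control arrays, -1.74, -1.58, -1.93 and -1.37 on the S1 arrays and -1.75, -1.77, -1.87 and -1.60 on the S2 arrays. Only S1-4 among the exposed arrays reached the controls, and the change was -0.25 (adjusted p = 0.326) in S1 and -0.35 (adjusted p = 0.13) in S2. mmp13l, named for its likeness to collagenase 3, stood at -0.22 (adjusted p = 0.611) in S1 and -0.47 (adjusted p = 0.157) in S2, and mmp28, an enzyme of epidermis, at -0.17 (adjusted p = 0.713) in S1 and -0.41 (adjusted p = 0.237) in S2. mmp21, needed for left-right asymmetry of the vertebrate embryo, was the only one with a mean above the controls, 0.07 in S1 and 0.08 in S2. mmp8, the collagenase of neutrophils, was read on a cross-hybridising probe that was well above background on 3 control arrays, 1 S1 array and 1 S2 array, and its intervals were wide (-1.37 to 0.67 in S1). Their inhibitor timp3, which stays bound to the matrix, stood at -0.18 (adjusted p = 0.681) in S1 and -0.24 (adjusted p = 0.463) in S2.

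Counted by arrays instead of by the test, 4 genes in S1 had all 4 arrays below all 4 controls (fbln7, col27a1, adamts5 and adamts7) and 1 had them above (adamts20), or 8.89% and 2.22% of the set against 4.95% and 5.61% of all tested probes (in either direction 11.1% against 10.6%). In S2 these were 10 lower genes (fbln7, itgb3, itgb3bp, adamts5, col6a3, col13a1, col27a1, mmp13l, mmp24 and mmp28) and 1 higher (itga4), 22.2% and 2.22% of the set against 8.3% and 7.55% of all probes (in either direction 24.4% against 15.9%). With normexp and replaced local backgrounds the lower genes were 3 of 45 in S1 and 5 of 45 in S2, against 2.3% and 4.06% of all probes. With the local backgrounds as measured there were 0 in each, against 0.586% and 0.59%.

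**Figure D4:**
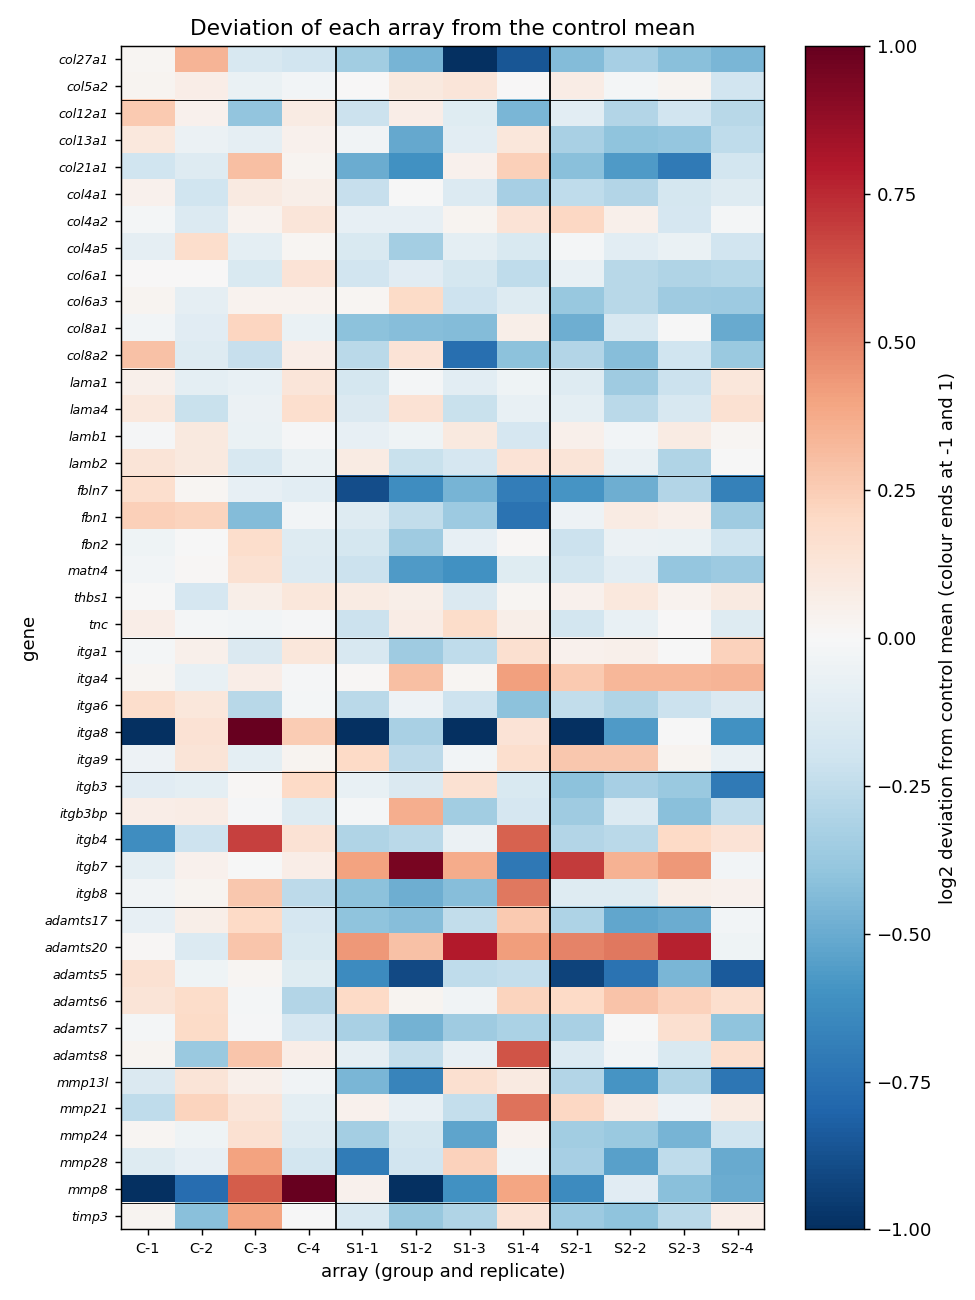
Log2 deviation from the control mean of 44 of the 45 genes (rows, by role) on each of the 12 arrays (columns); blue is lower and red higher, and the colour ends at -1 and 1. The fbln7 and adamts5 rows are blue on all 8 exposed arrays, and the laminin rows are pale. The itga8 row varies within every group, and the mmp8 row mostly within the controls and S1.

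Between the mixtures limma called none of the 45 genes and 0 of the 29168 probes, or 0.0%. At an unadjusted p under 0.05, 2 of the 45 genes (4.44%) and 7.34% of all probes passed, of all probes 3.05% higher and 4.29% lower in S2. Both were lower in S2: S2 minus S1 was -0.40 for itgb3 (interval -0.65 to -0.14, adjusted p = 0.534) and -0.31 for col6a3 (interval -0.52 to -0.10, adjusted p = 0.57). These are also the 2 genes whose S2 arrays all lay below the S1 arrays, against 2.66% of all probes, with 2.01% above and 4.67% in either direction. In 23 of the 45 genes (51.1%), and in 55.2% of all probes, the S2 mean was the lower. For fbln7 the difference S2 minus S1 was 0.15 (interval -0.11 to 0.41) and for adamts5 -0.24 (interval -0.58 to 0.11), so that adamts5, called in S2 and not in S1, is not shown to differ between the mixtures. The intervals show how large a difference could have been missed, and the absence of a call does not show that the mixtures acted alike. Across the set the median difference was -0.02, against -0.02 for all probes.

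Of 137 further genes of the matrix, of collagen processing and of cell adhesion, listed by role, 37 were measured. None passed in S1, where 24 of the 37 had a lower mean, and 4 fell and none rose in S2, where 27 had a lower mean (11 and 16 after normexp). Of all probes 2.63% fell in S2, and 52.5% in S1 and 56.4% in S2 had a lower mean (21.5% and 21.7% after normexp). Below the median of all probes lay 23 of the 37 in S1 and 24 in S2, and 23 and 25 after normexp. Their median change was -0.07 in S1 and -0.14 in S2. The 4 were efemp1, a fibulin family gene outside the naming rule (fell by 0.50 ± 0.09, adjusted p = 0.0134), emilin3, of the EMILIN family of matrix glycoproteins (fell by 0.48, adjusted p = 0.0337), vcan, which encodes versican, a substrate of adamts5 and adamts20 (fell by 0.43 on a cross-hybridising probe, adjusted p = 0.0339), and kera, which encodes the corneal proteoglycan keratocan (fell by 0.67, adjusted p = 0.0392). The level of efemp1 was -1.86, -2.02, -1.86 and -1.91 on the control arrays, -2.25, -2.18, -2.11 and -2.32 on the S1 arrays and -2.24, -2.50, -2.53 and -2.39 on the S2 arrays. Its exposed arrays all lay below the controls, and the S1 change was -0.30 (adjusted p = 0.121). In the fit blocked by slide 2 of the 37 passed in S2, and with array brightness as a covariate 1. After normexp 0 passed, or 1 with local backgrounds replaced.

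Some markers of tissues that make or bear much matrix differed between the groups too. The marker lists were chosen with earlier results of these data known, so their shifts describe these genes and do not test a change of a tissue. The label of whole embryos fits the markers, since muscle, liver, neuron, lens, epidermis, endothelium, blood and cartilage lists each held at least 2 genes well above background on all 12 arrays, and the myeloid list held 1. Of 5 measured notochord and cartilage markers cytl1 fell in both mixtures (1.28 in S1 and 1.04 in S2), and the mean level of the list was -1.64 to -1.19 on the control arrays, -1.99 to -1.72 in S1 and -1.92 to -1.77 in S2. The others changed less and were not called. In S1 sp7, hapln1 and runx2 stood at -0.46, -0.34 and -0.32, and in S2 at -0.25, -0.28 and -0.39. The gene named not stood at 0.08 in S1 and -0.40 in S2. For 3 measured epidermal markers, of which 1 fell in S1 and 2 in S2, the mean level was -0.03 to 0.44, -0.67 to -0.33 and -0.89 to -0.57. Most of that shift lay in krt78.1 (-1.85 in S1 and -2.46 in S2), while grhl1 stood at 0.23 and 0.40. For 6 measured lens markers, of which 0 were called in S1 and 1 fell in S2, the mean level was -3.04 to -2.62, -4.66 to -3.64 and -5.21 to -3.31. The lens marker cryga.6 was well above background on 4 control, 1 S1 and 2 S2 arrays. Its low levels in the mixtures, which enter these means, are thus poorly measured. In all 3 lists the exposed arrays lay below the controls. The part of these tissues in the levels of fbln7, adamts5, itgb3 and the collagens was not tested. None was called among the 2 measured muscle markers, at a mean level of 4.36 to 4.47, 4.22 to 4.34 and 4.24 to 4.44, nor among the 4 of neurons, at 1.25 to 1.48, 0.97 to 1.17 and 1.00 to 1.30, where the S1 arrays lay below the controls in both lists. The 4 endothelial and 2 blood markers were not called either, with ranges that overlapped between all groups. Of 8 liver markers kng1 and plg rose in both mixtures and apob in S2, and none was called lower. A lower mean than the controls was seen for 3 of the 8 in S1 (fgg at -0.31, fga at -0.26 and vtn at -0.08). In S2 it was seen for 2 (alb at -0.25 and fga at -0.19). Of all probes 1.4% rose and 0.703% fell in S1, and 2.43% rose and 2.63% fell in S2. Of 2 myeloid markers mpo rose in S2 (0.58, adjusted p = 0.0498) and stood at 0.56 in S1 (adjusted p = 0.0811). The other, csf3r, went the other way in S2, at -0.39 (adjusted p = 0.333), and stood at 0.10 in S1 (adjusted p = 0.888). It was well above background on 3 of the S2 arrays.

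Beside the groups, the mean correlation of the genes from array to array was no higher than that of all tested probes. Positive and negative pairs offset each other in such a mean. Over the 990 pairs of the set, the correlation across the 12 arrays of their deviations from the group means had a mean of 0.0094, against 0.019 for pairs of all tested probes. The 3 highest were col12a1 with itga6 (r = 0.90), adamts8 with timp3 (r = 0.88) and lama1 with lama4 (r = 0.87), and the 2 lowest were fbn1 with col21a1 (r = -0.87) and fbn1 with itgb4 (r = -0.87). Those of the called genes were 0.56 for fbln7 with adamts5, 0.27 for fbln7 with itgb3 and 0.21 for itgb3 with adamts5. Chains that assemble into 1 protein did not follow each other closely: r was -0.11 for col4a1 with col4a2, 0.13 for col6a1 with col6a3 and -0.11 for col8a1 with col8a2. All points share their arrays and the scaling of each array. Each r rests on 12 values from which the 3 group means were taken out, and the extremes were picked from 990 pairs. These are descriptions only. The widest spread within groups was in itga8 (SD 0.88), mmp8 (0.75) and itgb7 (0.44), all well above background on fewer than 12 arrays, and the narrowest in lamb1 (0.08), col5a2 (0.08) and thbs1 (0.09).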

How the data were processed

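RNA of whole embryos, 12 samples in 3 groups of 4, was read on single-colour (Cy3) arrays. Scans had been processed by the authors with Agilent Feature Extraction 11.0.1.1 on a design of build JGI 4.1 (file headers), and per the file headers the deposited processed signal is an intensity on a linear scale, background-subtracted within each array. The authors' deposited value table is in log2 units; it equalled the quantile-normalized log2 processed signal to within 0.0013, uncentred and in the direction of the signal, with a median of 6.80 in every column. Which tool made it is not given in these sources.

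From the log2 of each intensity the 75th percentile of its array was subtracted. The 295 outlier spots were dropped, except where a probe had no other spot on that array, and 0 spots were saturated. Spots of a probe were averaged, and 29168 probes well above background on at least 4 arrays were fitted with limma 3.58.1 (R 4.3.3, with lmFit and eBayes, 1 fit over 12 arrays, no covariate). This step was tested on simulated data with independent noise and changes in S1 only. Those data held no effect shared by the probes of an array, so they do not test how such effects move the calls. Names came from a RefSeq table of UCB_Xtro 10.0, another build, so no coordinates are given; 23713 tested probes (81.3%) matched no entry. For a gene with several probes the brightest stood for it. Sequences were not used here. 1 of the 45 genes enters the counts and is not reported here by itself.

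The named genes are all called ones and, per role, the largest rise and fall in each mixture, the most and least correlated pairs, the most and least variable genes and those not above background in a group; other genes shown by array were chosen after their values were seen. The members and lists were chosen with earlier results of these data known. The normexp alternative (offset 50) started from the median spot signal and local background instead of the processed signal, as the files hold no mean, so that it changed several steps together. With local backgrounds as measured it gave the highest adjusted p of each range over all alternatives given above. The other alternatives changed 1 choice at a time: normalization, filter, probes, slide or replicate block, brightness, weights, outlier spots and each array left out.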

Additional observations from a re-analysis of the deposited data

Results flagged for a closer look

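Within the groups of 4 arrays, 7 of 132 combinations of a gene and a group held 1 array whose gap to its nearest neighbour exceeded Dixon's 95% limit as a share of the group's range, a limit at which chance marks about 1 group in 20. Among the controls these were col4a1 on C-2 at 2.35 (the others 2.59 to 2.63), col6a3 on C-2 at 1.94 (the others 2.06 to 2.07) and tnc on C-1 at 2.87 (the others 2.78 to 2.79). In S1 both were on S1-4: col8a1 at 1.29 (the others 0.80 to 0.82) and itgb8 at -2.19 (the others -3.20 to -3.13). In S2 both were on S2-1: col6a1 at 3.88 (the others 3.66 to 3.68) and itga4 at -1.77 (the others -1.70 to -1.69). None of fbln7, adamts5 and itgb3 was among them.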

How the results depend on the processing

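The count of genes called was small and moved with the processing; the cause was not tested. Without each array in turn it was 1 to 2 in S1, 0 to 4 in S2, 0 between the mixtures and 0 to 2 in the F-test, the median change lay between -0.17 and -0.11 in S1, -0.21 and -0.15 in S2 and -0.04 and 0.04 between the mixtures, and 0 to 4 other matrix genes were called in S2. Over these sets 277 to 744 of all probes were called in S1 and 482 to 1673 in S2. The count of genes in S2 was 0 without C-1, C-3, S2-1 or S2-2, with 845, 591, 482 and 519 of all probes called. It was 4 without S1-2, with 1576 of all probes called. After normexp background correction, where 28 and 30 of all 29168 probes were called in S1 and S2 (612 and 1476 without it), 0 genes were called in S1, S2 and the F-test, with medians of 0.11 in S1, 0.023 in S2 and -0.14 between the mixtures, 0 other matrix genes in S2, and 0 genes below the controls on every array; with outlying local backgrounds replaced, a form chosen after seeing the data in which 533 and 657 of all probes were called, 0 were called in S1, S2 and the F-test, the S1 median was 0.0091, 1 other matrix gene was called in S2 and 5 genes lay below the controls on all S2 arrays. Quantile normalization and the authors' value table gave 2 in S1, 5 in S2 and 2 in the F-test. Each called 761 of all probes in S1 and 1429 in S2. Probes above background on all arrays gave 2 in S1, where 785 probes were called, and 2 in the F-test. Specific probes alone gave 2 in the F-test. Array brightness as a covariate, with 104 and 732 of all probes called, gave 0 in S1, S2 and the F-test, an S1 median of -0.22 and 1 other matrix gene in S2. In S1 that fit cannot fully tell brightness and exposure apart, since every S1 array was dimmer than every control array. Array weights, with 4026 of all probes called in S2, gave 8 in S2, 5 in the F-test and 8 other matrix genes in S2. Blocking by slide, with 1049 of all probes called in S2, gave 2 other matrix genes there. Same-numbered arrays of different groups correlated at -0.03 to 0.36 in their deviations, only 8 of 12 pairs over 0.1, so that the numbers were not taken as pairs. Still, 8 of the 12 arrays correlated best with their own number, a hint from the data and not the design. Several same-numbered arrays also shared a slide, so that number and slide cannot be fully told apart. The median correlation was 0.14 for pairs of the same number, -0.05 for pairs of different numbers and 0.16 for pairs on the same slide. A replicate block gave 2 genes in S1, with col27a1 (adjusted p = 0.0441), and 1 in S2, without fbln7 (0.0506) and itgb3 (0.0781), and 1 other matrix gene in S2. With that block 420 of all probes were called in S1 and 1100 in S2. Among named genes that were not called, 34 changes took the other sign in at least 1 of these settings and 18 when 1 array was left out. The unadjusted 95% interval of a change reached 0.19 to 1.18 to either side, and 4 of the 45 genes were dim on some arrays.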
